A study of Homo sapiens with 12 samples.

Results

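The replication helicase and origin licensing genes described here are MCM3, MCM5, MCM10, CDC45 and CDC6. They were taken by symbol from the array annotation, and each of the 5 had 1 transcript cluster, the array's unit for a gene. They are 5 of 14812 named genes, and all 5 are among the 11105 genes that passed the filter on low values. RNA came from LNCaP, a human prostate cancer cell line that responds to androgen, and the cells of every group had been infected with the same control plasmid, MSCV-LMP. Cells in charcoal dextran treated serum, which is depleted of steroid hormones, or in full serum received the ethanol vehicle, 1 nM cabazitaxel or 1 nM docetaxel for 16 h. Each of these 6 groups has 2 arrays. The labels do not state whether replicates came from separate cultures, and the p-values then reflect just the spread between these samples, which may be technical.

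Eukaryotic cells license a replication origin in G1, when the origin recognition complex, CDC6 and CDT1 load the ring of MCM2 to MCM7 onto DNA. At the start of S phase CDC45 and the GINS complex join that ring to form the active helicase, and MCM10 takes part in its activation. Transcription of these genes is classically tied to E2F factors at the passage from G1 to S phase. Taxanes bind and stabilise microtubules and are best known for blocking mitosis.

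RefSeq promoter windows on GRCh38.p14 were on hand for MCM3, MCM10, CDC45 and CDC6, and MCM5 was not among them. The 250 bases before the transcript start are printed for each, since the 4 genes share a role and the values below compare them. For CDC45, which had 3 windows, the most downstream window is printed. Capitals mark GGCGGGA on either strand, a core shared by many E2F sites, and this word was chosen after the windows had been read.
MCM3, chr6:52284743-52284992, minus strand: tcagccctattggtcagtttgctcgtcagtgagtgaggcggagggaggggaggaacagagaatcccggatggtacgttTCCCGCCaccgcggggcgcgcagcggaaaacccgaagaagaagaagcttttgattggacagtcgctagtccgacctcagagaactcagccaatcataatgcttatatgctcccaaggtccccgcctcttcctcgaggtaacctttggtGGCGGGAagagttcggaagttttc
MCM10, chr10:13161308-13161557, plus strand: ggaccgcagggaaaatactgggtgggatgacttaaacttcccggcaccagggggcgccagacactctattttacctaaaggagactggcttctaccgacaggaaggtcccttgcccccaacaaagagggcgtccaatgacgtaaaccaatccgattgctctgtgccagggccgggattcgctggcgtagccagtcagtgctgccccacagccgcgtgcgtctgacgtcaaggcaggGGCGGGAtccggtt
CDC45, chr22:19479670-19479919, plus strand: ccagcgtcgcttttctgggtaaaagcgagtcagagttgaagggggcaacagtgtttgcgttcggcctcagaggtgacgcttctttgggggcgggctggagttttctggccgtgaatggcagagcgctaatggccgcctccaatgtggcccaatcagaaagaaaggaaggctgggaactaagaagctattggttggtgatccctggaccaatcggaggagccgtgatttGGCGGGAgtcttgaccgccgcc
CDC6, chr17:40287629-40287878, plus strand: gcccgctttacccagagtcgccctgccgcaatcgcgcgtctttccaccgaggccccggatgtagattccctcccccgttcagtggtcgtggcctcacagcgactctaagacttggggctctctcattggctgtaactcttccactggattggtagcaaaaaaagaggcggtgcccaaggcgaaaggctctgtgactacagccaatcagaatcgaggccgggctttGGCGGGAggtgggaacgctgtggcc

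The core lay 18 to 24 bases before the start in MCM3, 8 to 14 in MCM10, 16 to 22 in CDC45 and 19 to 25 in CDC6. MCM3 held another copy on the opposite strand, 166 to 172 bases before the start. The other 2 CDC45 windows, which start farther upstream, held no copy. The same word was found in 19.9% of the 11891 windows of tested genes and in 13.5% of all 35116 windows. The stricter E2F words TTTCCCGC, TTTGGCGC, TTTCGCGC and TTTGCCGC, also searched on both strands, occurred in MCM3 alone, where TTTCCCGC overlaps the distal core, and in 3.89% of windows of tested genes. The CCAAT box was present in each of the 4 printed windows, 2 to 4 times, and in 32.9% of windows of tested genes. A match describes these letters and not a bound site.

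The deposited values are RMA intensities on a linear scale, with array medians from 22.2 to 22.4, and replicates correlated across tested genes with r from 0.986 to 0.992. All 5 genes lay above the overall median of 22.3 on each of the 12 arrays, with intensities from 44.4 to 213. Of 12 luminal prostate markers 8 were named and all 8 passed the filter, among them KLK3, KLK2, FOLH1, HOXB13 and FOXA1. The androgen target KLK2 was 1.47 higher on the log2 scale in full than in charcoal serum, as the mean of the 3 treatments (limma adjusted p = 8.18e-06). The luminal markers did not share this direction, with 4 of the 8 higher and 4 lower in full serum (median 0.0093). Limma called 3 of the 8 higher, against 1.1% of all genes. Of 16 markers of fibroblasts, basal cells and blood cells 8 were named, and DCN, LUM and KRT5 did not pass. The other 5, VIM, FN1, THY1, KRT14 and CD68, did pass, and FN1 was strong, with intensities from 393 to 689. The summed intensity of these 8 was 571 to 708 on charcoal-serum arrays and 680 to 870 on full-serum arrays.

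**Figure D1:**
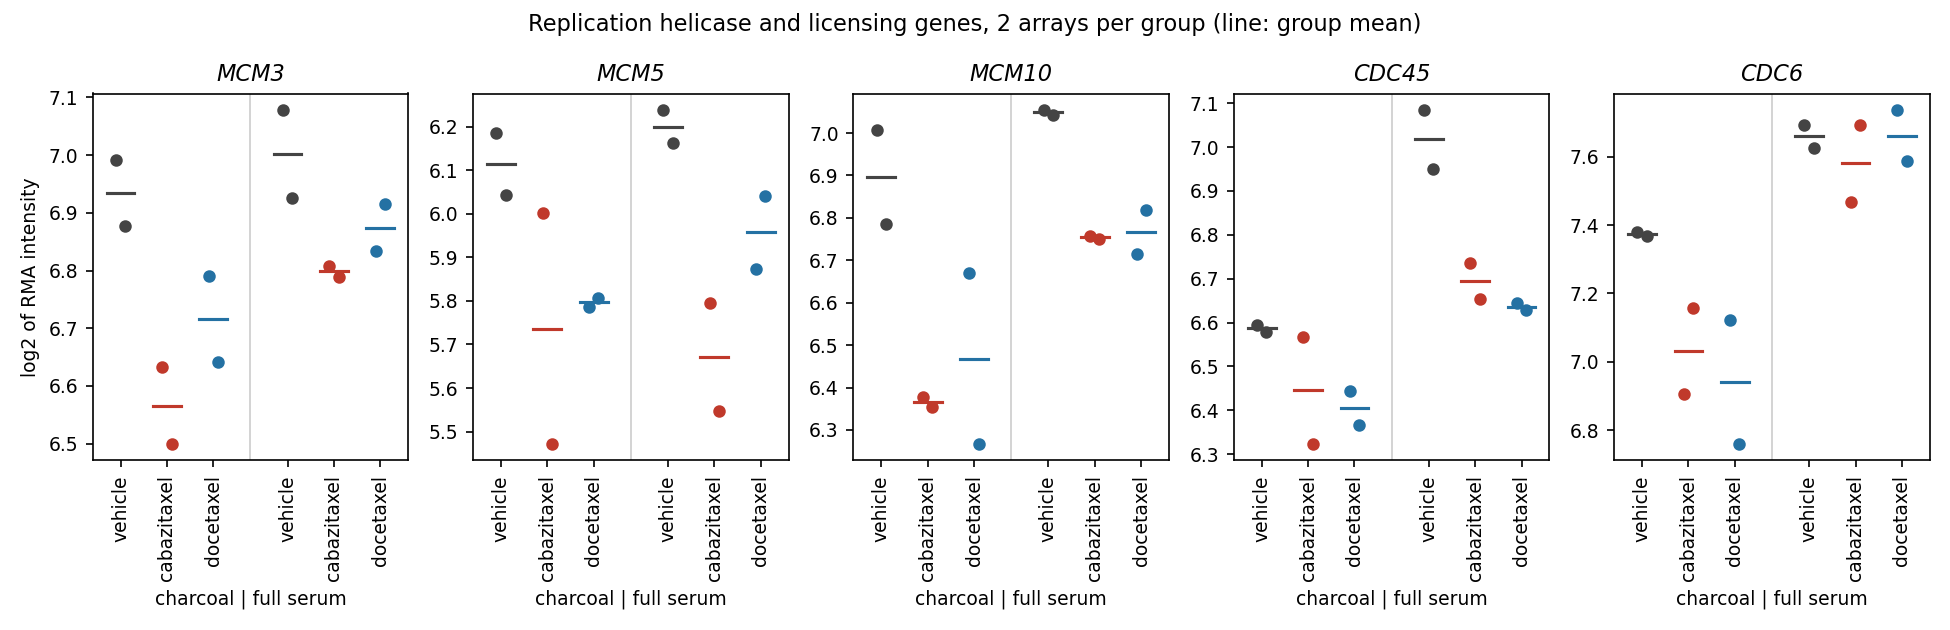
Log2 of the RMA intensity (vertical axis, a separate scale per gene) on each array, by serum and drug. Points are arrays, lines are means of 2, and in charcoal serum all 4 taxane arrays lie below both vehicle arrays in every gene, while CDC6 overlaps between drug and vehicle in full serum.

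MCM3 and MCM5 encode subunits of the helicase ring, and both had lower values with either taxane, differences that did not pass the test given further on. In charcoal serum the MCM3 intensity was 127 and 118 with vehicle, 99.2 and 90.5 with cabazitaxel, and 111 and 99.9 with docetaxel. In full serum it was 135 and 122 with vehicle, 112 and 111 with cabazitaxel, and 114 and 121 with docetaxel. Each taxane array thus lay below both vehicle arrays of its serum, by a narrow margin for docetaxel in full serum. The order of the log2 group means ran from full-serum vehicle (7.002 ± 0.11, SD, n = 2) through charcoal vehicle, full-serum docetaxel, full-serum cabazitaxel and charcoal docetaxel to charcoal cabazitaxel (6.57 ± 0.094, SD, n = 2). Neighbours in that order overlapped, except full-serum docetaxel over full-serum cabazitaxel and charcoal docetaxel over charcoal cabazitaxel.

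The MCM5 intensity in charcoal serum was 72.8 and 66.0 with vehicle, 64.1 and 44.4 with cabazitaxel, and 55.2 and 56.0 with docetaxel. In full serum it was 75.5 and 71.6 with vehicle, 55.6 and 46.8 with cabazitaxel, and 58.6 and 65.9 with docetaxel. No taxane array reached any vehicle array, whichever serum it came from, though full-serum docetaxel replicate 2 and charcoal vehicle replicate 2 nearly met. The cabazitaxel pair in charcoal serum was far apart, with an SD of 0.37 on the log2 scale. The order ran from full-serum vehicle (6.2001 ± 0.054, SD, n = 2) and charcoal vehicle to docetaxel in full and then charcoal serum, with cabazitaxel in charcoal (5.74 ± 0.37, SD, n = 2) and full serum (5.67 ± 0.18, SD, n = 2) at the bottom. The vehicle groups overlapped with each other, as did the lowest 3 groups, each with its neighbour.

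MCM10 and CDC45 act when the loaded ring becomes an active helicase. The MCM10 intensity in charcoal serum was 129 and 110 with vehicle, 83.1 and 81.8 with cabazitaxel, and 102 and 77.0 with docetaxel. In full serum it was 133 and 132 with vehicle, 108 and 108 with cabazitaxel, and 105 and 113 with docetaxel. Vehicle was above both drugs within each serum, and the taxane arrays in full serum were above those in charcoal serum. Its group means spanned 0.68 on the log2 scale, from 7.05 ± 0.0074 in full-serum vehicle to 6.37 ± 0.016 in charcoal cabazitaxel (SD, n = 2 each), against a median span of 0.18 over all tested genes. Gaps without overlap between neighbours separated full-serum vehicle from charcoal vehicle and full-serum cabazitaxel from charcoal docetaxel, and the other neighbours overlapped.

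The CDC45 intensity in charcoal serum was 96.7 and 95.6 with vehicle, 94.8 and 80.1 with cabazitaxel, and 87.0 and 82.5 with docetaxel. In full serum it was 136 and 124 with vehicle, 107 and 101 with cabazitaxel, and 99.99 and 98.9 with docetaxel. All 6 full-serum arrays lay above all 6 charcoal-serum arrays, and within each serum vehicle was highest. Full-serum vehicle (7.02 ± 0.094, SD, n = 2) stood 0.32 above the next group, full-serum cabazitaxel, and the only neighbours that overlapped were charcoal cabazitaxel (6.45 ± 0.17, SD, n = 2) and charcoal docetaxel (6.40 ± 0.055, SD, n = 2).

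CDC6 encodes the ATPase that brings the MCM ring to the origin. Its intensity in charcoal serum was 167 and 165 with vehicle, 120 and 143 with cabazitaxel, and 139 and 108 with docetaxel. In full serum it was 207 and 197 with vehicle, 177 and 207 with cabazitaxel, and 213 and 192 with docetaxel. The taxane arrays were below vehicle in charcoal serum and overlapped with vehicle in full serum, where the 3 treatments could not be ranked. The lowest full-serum array lay above the highest charcoal-serum array. Log2 means ran from 7.66 ± 0.11 in full-serum docetaxel to 6.94 ± 0.26 in charcoal docetaxel (SD, n = 2 each), so that these ends of the order came from the same drug.

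Each taxane was then compared with vehicle, the comparison named in the series' design. As the mean of both sera, MCM10 was 1.33-fold lower with cabazitaxel (log2 difference -0.41, SE 0.0835) and 1.28-fold lower with docetaxel (-0.35, SE 0.0835). MCM5 stood at -0.45 (SE 0.104) with cabazitaxel and -0.28 (SE 0.104) with docetaxel, MCM3 at -0.29 and -0.17 (SE 0.0619), CDC45 at -0.23 and -0.28 (SE 0.0631), and CDC6 at -0.21 and -0.22 (SE 0.09). By limma 0 of the 5 were called with either drug at an adjusted p under 0.05 over all 11105 genes, as were 0% of all genes. The lowest adjusted p was 0.74 with cabazitaxel, for MCM10, and 0.757 with docetaxel. All 5 had an unadjusted limma p under 0.05 in the lower direction with each drug, against 2.49% of all genes with cabazitaxel and 2.02% with docetaxel. The drugs share their vehicle arrays, so these are not independent results, and the genes were chosen with the drug differences known, so the counts describe them and support nothing further.

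With both taxanes against vehicle, 8 arrays against 4, MCM10 stood at -0.38 (95% confidence interval -0.54 to -0.22) and MCM5 at -0.37 (-0.57 to -0.17). Those were the lowest and second lowest values of the 11105 genes, whose median was 0.0065. CDC45 stood at -0.26 (-0.38 to -0.14), MCM3 at -0.23 (-0.35 to -0.11) and CDC6 at -0.21 (-0.38 to -0.042). No member was called by limma (0 of 5, and 0% of all genes), with adjusted p of 0.563 for MCM10, 0.708 for MCM5, CDC45 and MCM3, and 0.843 for CDC6. All 5 had an unadjusted limma p under 0.05 in the lower direction, against 2.29% of all genes. Leaving out each array in turn kept all 5 below 0, with MCM10 between -0.44 and -0.33. In charcoal serum all 4 taxane arrays lay below both vehicle arrays for 5 of 5 genes, a pattern found in 5.85% of all genes. In full serum it held for 4 of 5, all but CDC6, against 5.32% of all genes, and in both sera for the same 4, against 0.459%. The genes were chosen with the drug differences known. These ranks and counts, and those within each serum below, thus describe them and support nothing further. In bulk RNA, fewer cells in a given cell cycle phase and less RNA per cell cannot be told apart.

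**Figure D2:**
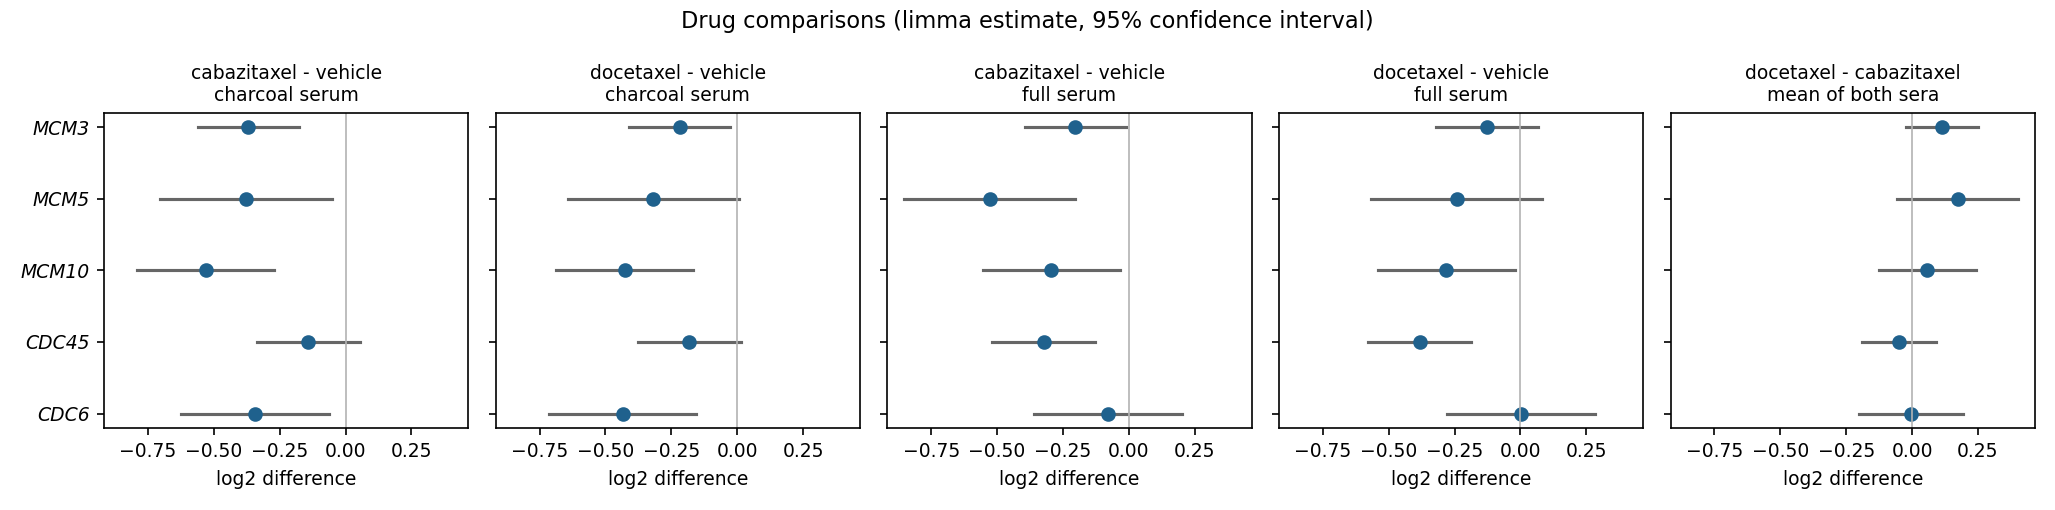
Log2 differences (horizontal axis) of the 5 genes for each drug against vehicle within each serum, and for docetaxel against cabazitaxel as the mean of both sera. Points are limma estimates and bars 95% confidence intervals, and none of the differences was called.

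Within charcoal serum, cabazitaxel gave -0.53 for MCM10 (SE 0.118), -0.38 for MCM5, -0.37 for MCM3, -0.34 for CDC6 and -0.14 for CDC45. Docetaxel gave -0.43 for MCM10, -0.43 for CDC6 (SE 0.127), -0.32 for MCM5, -0.22 for MCM3 and -0.18 for CDC45. For each drug 0 of the 5 were called by limma, and 0% of all genes. At an unadjusted limma p under 0.05, 4 of 5 were lower with cabazitaxel, against 2.34% of all genes, and 3 of 5 with docetaxel, against 2.35%. Some of these values rested on 1 array. Without charcoal cabazitaxel replicate 2, MCM5 stood at -0.11 and CDC45 at -0.020, and without replicate 1 at -0.64 and -0.26. CDC6 stood at -0.22 without charcoal cabazitaxel replicate 1 and at -0.47 without replicate 2. Without charcoal docetaxel replicate 2, MCM10 stood at -0.23, CDC6 at -0.25 and MCM3 at -0.14, and the docetaxel value of CDC6 over both sera was -0.13. Without charcoal docetaxel replicate 1 they were -0.63, -0.62, -0.29 and -0.31 in the same order.

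Within full serum the order of the genes differed, with MCM5 at -0.53 (SE 0.148), CDC45 at -0.32 (SE 0.0892), MCM10 at -0.29, MCM3 at -0.20 and CDC6 at -0.078 for cabazitaxel. For docetaxel CDC45 stood at -0.38 (SE 0.0892), MCM10 at -0.28, MCM5 at -0.24, MCM3 at -0.13 and CDC6 at 0.0023. Neither drug gave a call by limma, with 0 of the 5 and 0% of all genes. At an unadjusted limma p under 0.05, 4 of 5 were lower with cabazitaxel, against 1.82% of all genes, and 2 of 5 with docetaxel, against 1.49%. Without full-serum vehicle replicate 1 the MCM3 values were -0.13 for cabazitaxel and -0.051 for docetaxel, and without replicate 2 the latter was -0.20. Without full-serum docetaxel replicate 1 the MCM5 value for docetaxel was -0.16. CDC6 changed sign when single arrays were left out, between -0.19 and 0.035 for cabazitaxel and between -0.072 and 0.077 for docetaxel.

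Whether the drugs acted differently in the 2 sera was tested as an interaction. The docetaxel effect on CDC6 was 0.44 higher in full than in charcoal serum (95% confidence interval 0.041 to 0.83, limma adjusted p = 0.999), and 0.26 without charcoal docetaxel replicate 2. The cabazitaxel effect on CDC6 differed by 0.27 (-0.13 to 0.66). CDC45 went the other way, with -0.20 (-0.48 to 0.077) for docetaxel and -0.18 (-0.46 to 0.096) for cabazitaxel. MCM10 stood at 0.15 and 0.24, MCM3 at 0.091 and 0.17 and MCM5 at 0.076 and -0.15 in the same order. These values moved widely when single arrays were left out. For docetaxel they ranged from 0.015 to 0.17 for MCM3, from -0.056 to 0.35 for MCM10 and from -0.0080 to 0.16 for MCM5. For cabazitaxel the ranges were 0.089 to 0.24 for MCM3, 0.12 to 0.35 for MCM10, -0.41 to 0.11 for MCM5, -0.30 to -0.060 for CDC45 and 0.14 to 0.39 for CDC6. For each drug 0 of the 5 and 0% of all genes were called. An unadjusted limma p under 0.05 was reached by CDC6 with docetaxel, 1 of 5 against 3.61% of all genes, and by 0 of 5 with cabazitaxel, against 3.42%. A different response in the sera was thus not shown for any of them.

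Cabazitaxel and docetaxel share the taxane core, and cabazitaxel has methoxy groups where docetaxel carries hydroxyls. Both were given at 1 nM for 16 h, so 1 pair of compounds was compared directly, over both sera. MCM5 was 0.17 higher with docetaxel (95% confidence interval -0.057 to 0.40) and MCM3 0.11 higher (-0.023 to 0.25). MCM10 stood at 0.058 (-0.13 to 0.24), CDC45 at -0.050 (-0.19 to 0.089) and CDC6 at -0.0049 (-0.20 to 0.19). Quantile normalization once more gave 0.063 for MCM3, 0.013 for MCM10, -0.097 for CDC45 and -0.045 for CDC6. Of the 5 genes 0 were called by limma, with adjusted p from 0.958 to 0.998 over all genes, and 0% of all genes, and at an unadjusted p under 0.05 it gave 0 of the 5 against 4.56% of all genes. No difference between the drugs was detected, and the intervals still allow differences of up to 0.40 for MCM5. Without charcoal cabazitaxel replicate 2 the MCM5 difference was 0.041, and without replicate 1 it was 0.31.

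**Figure D3:**
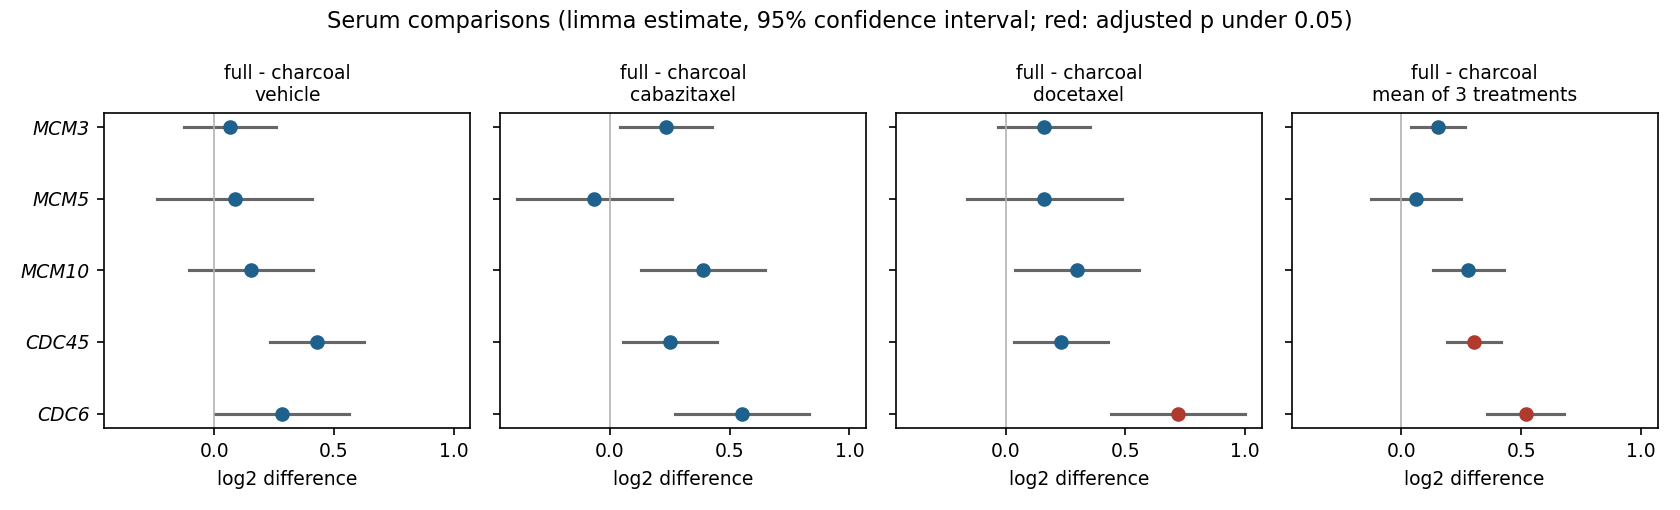
Log2 differences (horizontal axis) between full and charcoal serum for each treatment and for the mean of the 3 treatments. Points are limma estimates, bars 95% confidence intervals, and red marks an adjusted p under 0.05, which CDC6 reached with docetaxel and CDC6 and CDC45 reached in the mean.

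CDC6 and CDC45 were higher in full serum than in charcoal serum. As the mean of the 3 treatments, 6 arrays against 6, CDC6 was 1.43-fold higher in full serum (log2 difference 0.52, SE 0.0735, limma adjusted p = 0.00308). CDC45 was 1.23-fold higher (0.30, SE 0.0515, limma adjusted p = 0.00952). Limma thus called 2 of the 5 higher, against 1.1% of all genes called higher and 2.31% called in either direction. The 6 full-serum arrays of both genes lay above all 6 charcoal-serum arrays, by a narrow margin for CDC45 (intensity 98.9 against 96.7). The share of all genes with this pattern was not counted. MCM10 stood at 0.28 (SE 0.0682, limma adjusted p = 0.0644), MCM3 at 0.15 (adjusted p = 0.179) and MCM5 at 0.061 (adjusted p = 0.863), and none of these 3 passed. All but MCM5, 4 of 5, had an unadjusted limma p under 0.05 in the higher direction, against 6.09% of all genes. CDC6 stayed called without any single array, between 0.46 and 0.58, as did CDC45, between 0.26 and 0.34, while MCM10 was called at 0.35 without charcoal docetaxel replicate 1. With an assumed constant offset of 16 subtracted from the intensities, CDC45 was not called (0.36, limma adjusted p = 0.0641). The summed markers of other cell types given above also tended to be higher in full serum, though the ranges of the sera overlapped. Most of that sum came from FN1 (0.34, limma adjusted p = 0.0838, not called). The part of these markers in the result was not tested.

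The serum difference was also read within each treatment. In vehicle CDC45 stood at 0.43 (SE 0.0892) and CDC6 at 0.28 (SE 0.127), with MCM10 at 0.15, MCM5 at 0.085 and MCM3 at 0.067. None of the 5 was called by limma (0 of 5, against 0.396% of all genes and 0.225% called higher), and 2 of 5 had an unadjusted p under 0.05 in the higher direction, against 3.21%. Without charcoal vehicle replicate 2 the vehicle values of MCM3, MCM5 and MCM10 were 0.0098, 0.014 and 0.042. With cabazitaxel CDC6 stood at 0.55, MCM10 at 0.39, CDC45 at 0.25, MCM3 at 0.23 and MCM5 at -0.065. Without charcoal cabazitaxel replicate 2 the CDC45 value was 0.13 and the MCM5 value -0.33. Again 0 of 5 were called, against 0.396% of all genes and 0.261% called higher, and 4 of 5 had an unadjusted p under 0.05 in the higher direction, against 3.63%.

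With docetaxel CDC6 was 1.65-fold higher in full serum (0.72, SE 0.127, limma adjusted p = 0.0477). It was the 1 of the 5 genes called higher, against 0.162% of all genes called higher and 0.315% in either direction. MCM10 stood at 0.30, CDC45 at 0.23, MCM5 at 0.16 and MCM3 at 0.16, and 3 of 5 had an unadjusted limma p under 0.05 in the higher direction, against 4.03% of all genes. Without charcoal docetaxel replicate 2 MCM10 stood at 0.097 and MCM3 at 0.084, and without replicate 1 MCM10 stood at 0.50. Without full-serum docetaxel replicate 2 MCM5 stood at 0.077, and without replicate 1 at 0.25. The call of CDC6 was lost without charcoal docetaxel replicate 2 (0.54), full-serum docetaxel replicate 1 (0.65) or full-serum docetaxel replicate 2 (0.80), with limma adjusted p of 0.32, 0.35 and 0.193. Testing without the filter on low values also ended it (limma adjusted p = 0.123).

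**Figure D4:**
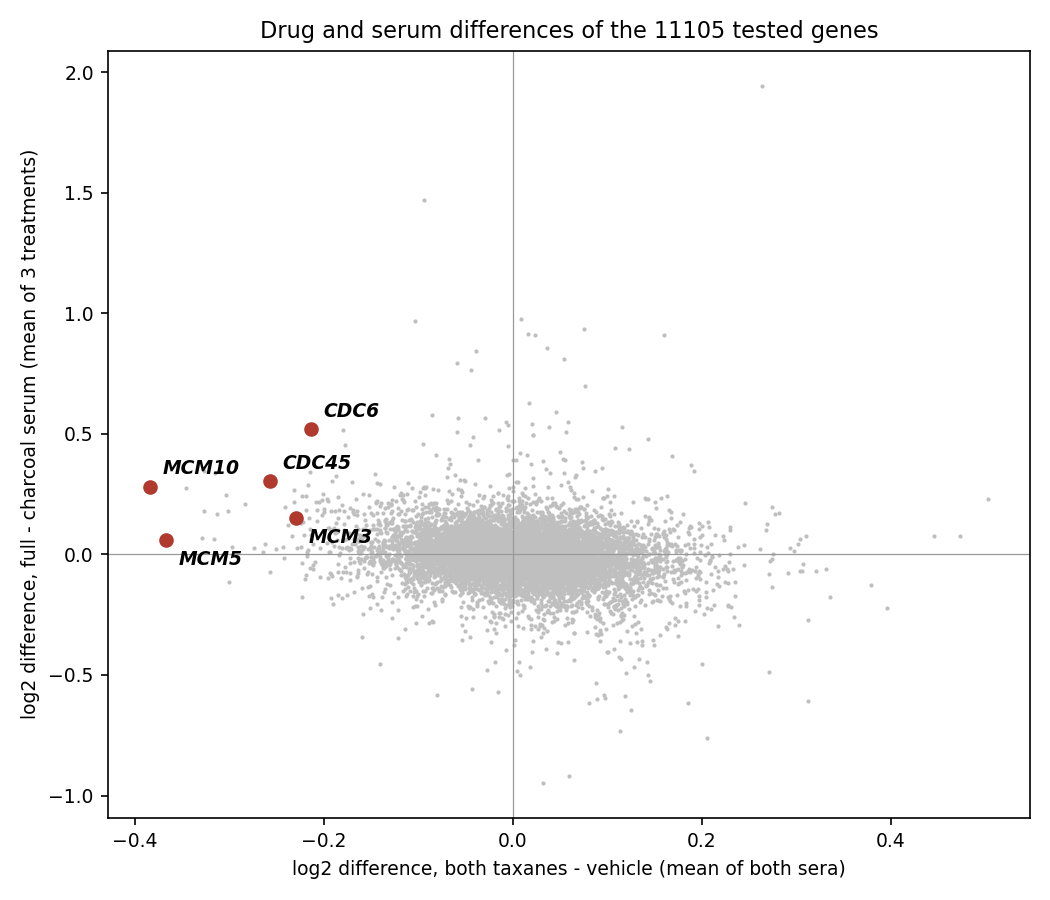
Each grey point is 1 of the 11105 tested genes, with the log2 difference of both taxanes against vehicle on the horizontal axis and of full against charcoal serum on the vertical axis. The 5 genes lie at the left edge, from -0.38 to -0.21, and spread vertically from 0.061 for MCM5 to 0.52 for CDC6.

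Across the 12 arrays MCM3 and MCM10 were the most alike of the 10 pairs of these genes (Pearson r 0.938, Spearman rho 0.937), and MCM5 and CDC6 the least (r 0.235, rho 0.224). These values mix drug and serum differences with array-to-array noise, since all genes come from the same arrays. Around the group means, where 2 arrays a group leave 6 independent differences, MCM5 went with CDC45 (r 0.832) and against CDC6 (r -0.653). The charcoal cabazitaxel arrays show it, since replicate 2 was the lower of its pair for MCM5 and CDC45 and the higher for CDC6. These values describe the arrays, and no test was made on them.

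The genes most like each member over the 12 arrays were ranked by Pearson r. For MCM3 they were WDR76 (r 0.951, rho 0.937), which encodes a WD40 repeat protein, MCM10 (r 0.938) and the G1/S cyclin gene CCNE2 (r 0.901, rho 0.918). For MCM10 they were WDR76 (r 0.954, rho 0.965), MCM3 and PSMC3IP (r 0.916, rho 0.937), a recombination gene. For CDC45 they were the kinetochore gene CENPM (r 0.914, rho 0.846), NTAQ1 (r 0.912, rho 0.895), which encodes a glutamine amidase, and the GINS subunit gene GINS1 (r 0.911, rho 0.804). For CDC6 they were the histone H4 methyltransferase gene KMT5A (r 0.946, rho 0.923), the mitochondrial gene CMC2 (r 0.939, rho 0.909) and NDFIP2 (r 0.901, rho 0.895). For MCM5 they were SCAMP3 (r 0.904, rho 0.846), RHOT2 (r 0.862, rho 0.769) and JOSD1 (r 0.836, rho 0.762), which encode a vesicle protein, a mitochondrial GTPase and a deubiquitinase. MCM3 and MCM10 thus shared WDR76, and the 3 closest to MCM5 hold no gene of the replication lists used here.

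**Figure D5:**
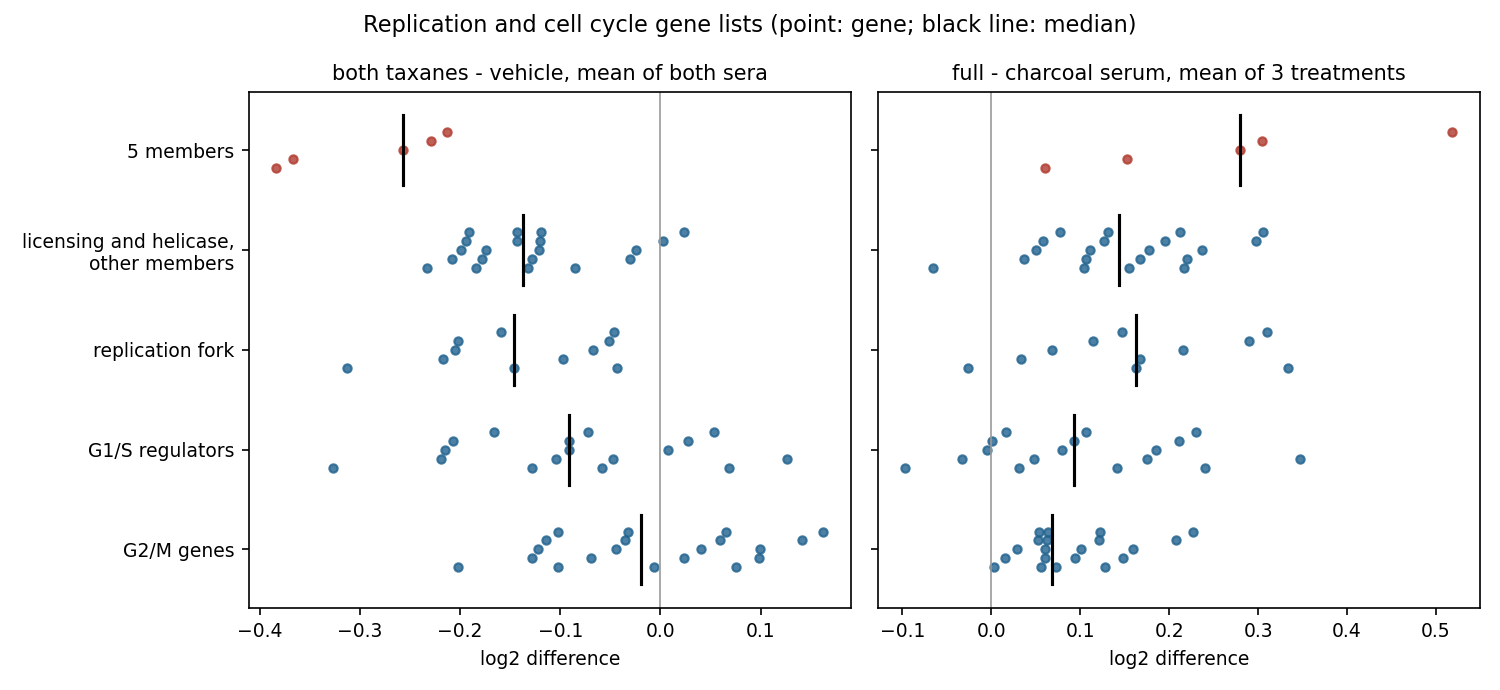
Log2 differences (horizontal axis) of the 5 genes and of the tested members of 4 gene lists, for both taxanes against vehicle (left) and full against charcoal serum (right). Points are genes and black lines medians, which lie at -0.26 for the 5 genes, -0.14 for other licensing and helicase genes and -0.020 for G2/M genes in the left panel.

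The other genes of licensing and of the helicase mostly had lower values with the taxanes too, and none passed the test. Their median was smaller in size than that of the 5, but the 5 were chosen with the drug differences known, so that gap carries no weight. The gene lists were also chosen with earlier results of these data known, so their counts here and below only describe them. Single genes such as CDC7 (-0.23 with both taxanes) lay at or below MCM3 and CDC6. Of 28 listed genes 20 were tested, and the 8 others, among them the ORC genes and GMNN, had no named cluster in the annotation used here. With cabazitaxel 20 of 20 were lower (median -0.17, against 0.0021 over all genes), and with docetaxel 16 of 20 (median -0.11, against 0.0091). Over all genes 48.9% were lower with cabazitaxel and 45.0% with docetaxel. No call was made among them with either drug (0 of 20). An unadjusted limma p under 0.05 in the lower direction was found for 11 of them under cabazitaxel, against 2.49% of all genes. Under docetaxel it was found for 6, against 2.02%. With both taxanes against vehicle the smallest p-values in this list, none of which passed, belonged to the origin kinase gene CDC7 (-0.23, SE 0.0587), the fork adaptor gene WDHD1 (-0.18), GINS4 (-0.20) and MCM2 (-0.19), with limma adjusted p = 0.708 for the first 3 and 0.8 for MCM2. CDT1, the loading partner of CDC6, stood at 0.0026 (SE 0.0636), and was named after its value had been seen.

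All 6 ring subunits could be set side by side in that comparison, though their relation was read after the values had been seen. MCM5 stood lowest at -0.37, followed by MCM3 at -0.23, MCM7 at -0.21, MCM2 at -0.19, MCM6 at -0.17 and MCM4 at -0.14. The GINS genes, whose products join CDC45 in the helicase, stood at -0.12 for GINS1, -0.14 for GINS2, -0.12 for GINS3 and -0.20 for GINS4, beside -0.26 for CDC45. None of these 11 genes was called by limma, and 9 of them, all but GINS2 and GINS3, had an unadjusted p under 0.05 in the lower direction, against 2.29% of all genes. MCM3, MCM5 and CDC45 are among these 9, and the genes were picked with their values known. Between the sera, as the mean of the 3 treatments, 19 of the 20 other licensing and helicase genes were higher in full serum (median 0.14, against -0.0014 over all genes, of which 50.9% were lower). Limma called 1 of them, MCM4 (0.22, adjusted p = 0.0439), against 1.1% of all genes called higher, and 0 with the offset of 16 subtracted.

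Of 35 listed genes of the replication fork 11 were tested. The others had no named cluster in the annotation used here. Among them were LIG1 and every listed gene of the RFC, RPA, POLA, PRIM, POLD and POLE families. With both taxanes all 11 tested genes were lower (median -0.15, against 0.0065 over all genes, of which 45.6% were lower). Limma called 0, and 6 had an unadjusted p under 0.05 in the lower direction, against 2.29% of all genes. The checkpoint adaptor gene CLSPN stood at -0.15 with both taxanes, and in vehicle it was 0.53 higher in full serum (limma adjusted p = 0.0271). As the mean of the 3 treatments limma called 4 of the 11 higher in full serum, CLSPN (0.33), DSCC1 (0.31), the nucleotide reductase gene RRM2 (0.29) and the clamp gene PCNA (0.22), against 1.1% of all genes. With the offset of 16 subtracted, 1 of the 11 was called. Of 24 G1/S regulators 17 were tested, and 12 were lower with both taxanes (median -0.091), with 0 called by limma. Of the 17, 5 had an unadjusted limma p under 0.05 in the lower direction, against the same 2.29%. Those with the smallest p were CCNE2 (-0.21, SE 0.04), FBXO5 (-0.22), CDC25A (-0.21) and E2F8 (-0.33), and E2F1 stood at -0.092 (SE 0.0613). Limma called 3 of the 17 higher in full serum, FBXO5 (0.24), CDK2 (0.23) and CCNE2 (0.19), against the same 1.1%, and 0 with the offset subtracted.

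Of 25 G2/M genes 20 were tested, and they did not share this direction. With both taxanes 11 were lower and 9 higher (median -0.020), and limma called 0. At an unadjusted limma p under 0.05, 1 was lower, against 2.29% of all genes. Another 2 were higher, a direction for which the share of all genes was not counted, so that count has no background. Cyclin B2 (CCNB2) stood at 0.16 (SE 0.0421) and cyclin B1 (CCNB1) at 0.14, the mitotic kinase gene AURKB at -0.20 and the kinesin gene KIF23 at -0.11. In full serum all 20 were higher than in charcoal serum as the mean of the 3 treatments, by a median of 0.068 (19 of 20 after quantile normalization once more). Of all genes 50.9% were lower in that comparison. Limma called 0 of the 20, and 4 had an unadjusted p under 0.05 in the higher direction, against 6.09% of all genes. The difference between these lists was not tested.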

How the data were processed

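Expression was measured on Affymetrix Human Gene 2.0 ST arrays. The authors normalised the deposited intensities by RMA (version not given), per the submitters' processing notes. They are linear (17.3 to 6307) and 57.5% lie below 24. Whether they hold a constant offset, which would compress changes of weak genes, is not known, and subtracting an assumed 16 was tried as an alternative. The authors also removed low-expressing genes, per the design text, at a threshold not given in the sources used here. Precision is limited by the number of arrays.

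The log2 was taken. Of 44629 transcript clusters 15835 had 1 gene symbol and 28794 had none, and the cluster with the highest mean was kept per symbol. A gene was tested if 2 or more arrays exceeded the overall median, which left 11105. The model, in limma 3.58.1 (R 4.3.3), fitted a mean for each group to the 12 arrays (6 residual and 5.08 prior degrees of freedom). P-values are two-sided, with Benjamini-Hochberg adjustment over all tested genes within each of 14 comparisons, and a call is an adjusted p under 0.05. The script was tested on simulated data. Genes named besides the 5 were those of each list called with a taxane or between the sera in vehicle, otherwise the 4 with the smallest p for both taxanes, and the 3 most correlated with each of the 5. Other genes named were chosen after their values were seen. The members and lists were chosen with earlier results of these data known.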

Additional observations from a re-analysis of the deposited data

How the results depend on the processing

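The drug comparisons kept 0 of 5 genes called under every alternative run, including the leave-one-out fits. For docetaxel, the serum call of CDC6 was lost (0 genes called) without the low filter, with the offset of 16 subtracted, with only the compared groups in the fit and with all transcript clusters tested, and leaving out arrays gave 0 to 1. In the mean of the 3 treatments 2 genes were called, 1 with the offset subtracted, and 2 to 3 when arrays were left out. Nothing in the labels ties a replicate number to a shared batch, and deviations of same-numbered arrays from their group means correlated with r from -0.0486 to 0.326 (median 0.151), above 0.1 in 10 of 15 pairs of groups. Pairing was taken to need more than 0.1 in every pair, so the fit without the block was kept, although most of these correlations were positive. With the replicate block 1 gene, CDC45, was called between the sera in vehicle (limma adjusted p = 0.0358), and 3 in the mean of treatments, MCM10 being added (adjusted p = 0.0364), while no other call changed. Counts over all genes rose with the block from 44 to 70 in vehicle and from 35 to 62 with docetaxel. They fell to 16 (vehicle), 10 (cabazitaxel), 9 (docetaxel) and, from 256, to 132 (mean) with the offset, and to 1, 7 and 12 with only the compared groups. Without the filter they were 25 (cabazitaxel) and 22 (docetaxel), and with all transcript clusters 59 (docetaxel). Leaving out arrays gave 7 to 43, 9 to 19, 7 to 21 and 149 to 248 in the same order. The cause was not tested. CDC6 with docetaxel in full serum turned to -0.047 after another quantile normalization. Leaving out arrays turned the sign of uncalled values, with ranges of -0.072 to 0.077 for the same value, -0.19 to 0.035 for CDC6 with cabazitaxel in full serum, and -0.0088 to 0.14 for MCM3 between sera in vehicle. For docetaxel against cabazitaxel they were -0.11 to 0.011 (CDC45), -0.096 to 0.086 (CDC6) and -0.043 to 0.16 (MCM10). For MCM5 they were -0.33 to 0.20 between sera with cabazitaxel, -0.028 to 0.15 in the mean, -0.41 to 0.11 for the cabazitaxel interaction and -0.0080 to 0.16 for docetaxel's, and for MCM10 -0.056 to 0.35 in the latter. The methods' t-test called 0 genes after adjustment, and at an unadjusted p under 0.05 it gave MCM10 with cabazitaxel in each serum, MCM5 and CDC45 with docetaxel in charcoal serum, and MCM10 and CDC45 with docetaxel in full serum. These are 1, 1, 2 and 2 of 5, for cabazitaxel in charcoal and full serum and docetaxel in charcoal and full serum, against 3.88%, 4.3%, 4.43% and 4.64% of all genes.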

Other observations

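Set against cabazitaxel, docetaxel gave slightly higher values across the cell cycle lists, as the mean of both sera, by amounts that depended on the scaling. In the values as deposited all 20 G2/M genes tested were higher with docetaxel, by a median of 0.071 on the log2 scale, against 0.0098 over all genes. So were 18 of 20 other licensing and helicase genes (median 0.054), 9 of 11 fork genes (median 0.055) and 15 of 17 G1/S regulators (median 0.048). Of all genes 44.6% were lower with docetaxel. After quantile normalization once more the counts were 17 of 20 (median 0.037), 12 of 20 (0.024), 8 of 11 (0.020) and 13 of 17 (0.017), against a median of -0.00045 over all genes. Limma called 0 of these genes in the values as deposited. At an unadjusted p under 0.05 it gave 0, 2, 0 and 2 of them in the order named, against 4.56% of all genes. The genes of a list come from the same 8 arrays and are not independent, and no test was made of the lists.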
